A study of Mus musculus with 2 samples.

Results

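The interferon regulatory factors (IRFs) are a family of transcription factors, of which 8 genes, Irf1, Irf2, Irf3, Irf4, Irf5, Irf7, Irf8 and Irf9, were followed here in a map of Aiolos binding. The members were chosen by gene symbol, and a peak belonged to a member when the authors' annotation named that gene. Of the 8 genes, 2 had a peak, Irf2 with 2 and Irf8 with 3, so 5 of the 1404 deposited peaks are described. The remaining 6 genes, Irf1, Irf3, Irf4, Irf5, Irf7 and Irf9, had no assigned peak.

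Aiolos, a zinc finger protein of the Ikaros family encoded by Ikzf3, was profiled by CUT&RUN in mouse natural killer (NK) cells. In CUT&RUN an antibody brings micrococcal nuclease fused to protein A to a chromatin protein, and the released DNA is sequenced. There were 2 libraries, 1 with the Aiolos antibody and 1 without a primary antibody, both from splenic NK cells grown with interleukin-15 at 50 ng/ml until at least 500000 cells were in hand. The labels name no genotype, strain or age, and the culture in interleukin-15 limits the cells as a model of resting NK cells. Each group was a single library, so no value has a replicate error, and all intervals below cover counting error in the antibody library alone. The file holds no expression values, so the label NK could not be checked against expression of marker genes.

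IRFs share an N-terminal DNA-binding domain that reads repeats of the bases GAAA, the element found in the promoters of interferons and of genes induced by them. IRF3 and IRF7 are switched on by sensors of foreign nucleic acid and start interferon transcription. IRF9 acts below the type I interferon receptor, while IRF1 and IRF2 often act at the same sites with opposite effect. IRF4 and IRF8 bind poorly alone and pair with ETS factors such as PU.1 or with AP-1 dimers that contain BATF. In NK cells, IRF2 is known to be needed for maturation, and IRF8 for the expansion of NK cells that meet cytomegalovirus.

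The promoter sequences of the members show what lies beside the peaks. RefSeq windows on GRCm38.p6, the same assembly as mm10, running from 250 bases before to 50 after a gene start, were found for 8 of 8 genes, 11 windows in all. Each was searched on both strands for 5 motifs: the Ikaros family core GGGAA, the AP-1 site TGANTCA, the STAT site TTCNNNGAA (GAS), the IRF element (GAAA, any 2 bases, GAAA) and the ETS-IRF composite element (GGAA, any 2 bases, GAAA). The last pair can overlap each other and the Ikaros core. The stretches below show the matches nearest the promoter peaks of Irf2 and Irf8, and those around the GAS of Irf1, which has no assigned peak. Further Ikaros cores of Irf1 and Irf8 lie outside them. All are on the plus strand, 5′ to 3′, and capitals mark bases in a match to any of the 5 motifs.

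Irf2 upstream, chr8:46739495-46739554: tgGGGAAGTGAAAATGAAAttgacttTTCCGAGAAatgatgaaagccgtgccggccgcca

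Irf2 inside its promoter peak, chr8:46739767-46739794: tgttttgctttcgatctggactgttctc

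Irf8 upstream, chr8:120736174-120736233: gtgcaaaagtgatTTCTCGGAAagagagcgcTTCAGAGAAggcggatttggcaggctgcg

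Irf8 inside its promoter peak, chr8:120736378-120736407: ggaggcgcgggcagcgtGGGAAccggcggc

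Irf1 upstream, chr11:53769884-53769943: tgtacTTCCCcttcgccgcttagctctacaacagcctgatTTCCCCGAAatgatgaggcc

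The first capital run of Irf2 joins an Ikaros core, an ETS-IRF composite (GGAAGTGAAA) and an IRF element (GAAAATGAAA), and the next run is a GAS. The IRF element and the composite were each found in 1 of the 11 IRF windows, that of Irf2, and in 3.44% and 2.72% of all 32851 promoter windows. A GAS was found in 3 of 11 windows, those of Irf1, Irf2 and Irf8, against 8.30% of all windows. The GAS of Irf1 is the second capital run of its stretch, and it contains an Ikaros core on the minus strand. The Ikaros core itself was common, in 8 of 11 IRF windows, covering every member except Irf4, and in 62.7% of all windows. Among the 845 windows that a peak overlapped, the core was present in 64.4%. The AP-1 site was in none of the 11 IRF windows and in 7.81% of all windows. These matches are descriptions of the letters and not of bound sites.

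Irf2, which encodes a factor that mostly represses through interferon elements, carried at its start the IRF peak with the highest fold and -log10 q, though not the most tags. The peak covered chr8:46739767-46740178, 412 bp wide, with its summit 11 bp after the start of the annotated transcript and 50 bp after the RefSeq start of the gene. The antibody library had 11 tags at the summit over a local background of 0.586 tags. The authors' fold enrichment, the ratio of both values after adding 1, was 7.57 (95% exact Poisson interval of the tags 4.09 to 13.0), with a -log10 q of 7.18. It ranked 437 of 1404 peaks by fold, so 67.7% of peaks were lower. The motif cluster shown above lay outside this peak: its IRF element ended 254 bp before the peak's edge, and the 28 bases of the window inside the peak held no match. That cluster lies at the start of Gm16675, a non-coding gene that begins 230 bp before Irf2 and runs the other way, while the peak sits on the Irf2 side.

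The other Irf2 peak lay beyond the far end of the gene. It covered chr8:46859409-46859631, in what the authors class as distal intergenic sequence, 11.95 kb past the RefSeq end of Irf2 and 79.6 kb from Enpp6, the next gene on that side. The authors' distance of 52.2 kb is measured from a short Irf2 transcript that starts inside the gene, and the summit was 120 kb from the main start. With 15 tags it had the most antibody tags of the IRF peaks, more than 89.2% of all peaks. Its background of 1.76 tags was also the highest, which brought the fold to 5.80 (3.41 to 9.34) and the -log10 q to 5.79.

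Irf8, the partner of PU.1 and BATF best known for directing monocyte and dendritic cell development, had 3 peaks, of which 1 touched its start. That peak covered chr8:120736361-120736587, beginning 3 bp inside the RefSeq gene, and its summit was 158 bp after the RefSeq start and 131 bp after the annotated transcript's start. It rested on 6 tags over a background of 0.364, a fold of 5.13 (2.35 to 10.3) and a -log10 q of 3.01. By -log10 q 16.0% of peaks were lower. The Ikaros core in the printed stretch of this peak began 121 bp before the summit, and the GAS pair upstream ended 148 bp or more before the peak's edge. The sequence under the summits of the IRF peaks was not analysed here.

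The remaining Irf8 peaks formed a pair about 20 kb upstream. The nearer covered chr8:120716232-120716457, with its edge 19.9 kb from the start, and held 12 tags over a background of 1.17, a fold of 5.99 (3.32 to 10.1) and a -log10 q of 5.10. The farther covered chr8:120715206-120715443, with its edge 20.9 kb from the start, and held 5 tags over 0.267, a fold of 4.74 (2.07 to 10.001) and a -log10 q of 2.60. The peaks were separated by 788 bp and their summits by 1009 bp. The nearer peak was the strongest at Irf8 by tags, fold and q, above the peak at the start, but the counting intervals of the 3 folds overlap. The farther peak was the weakest of the family by every measure, with 10.1% of all peaks lower in fold.

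The authors' annotation puts the upstream pair in an intron of a transcript that carries the gene identifier of Galnt2. In the RefSeq table Galnt2 lies at chr8:124231394-124345722, 3.51 Mb away, and no gene of that table covers either peak. The nearest entries are the non-coding gene Gm39265, 15.4 kb to the left of the nearer peak, and the pseudogene Gm18709, 10.8 kb to its right. This mismatch was not particular to Irf8: of 182 peaks for which the annotation named a host gene, 20 lay outside that gene in the RefSeq table. The assignment of both peaks to Irf8 does not rest on the intron label, since Irf8 was also the protein-coding gene whose end was nearest to them.

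**Figure D1:**
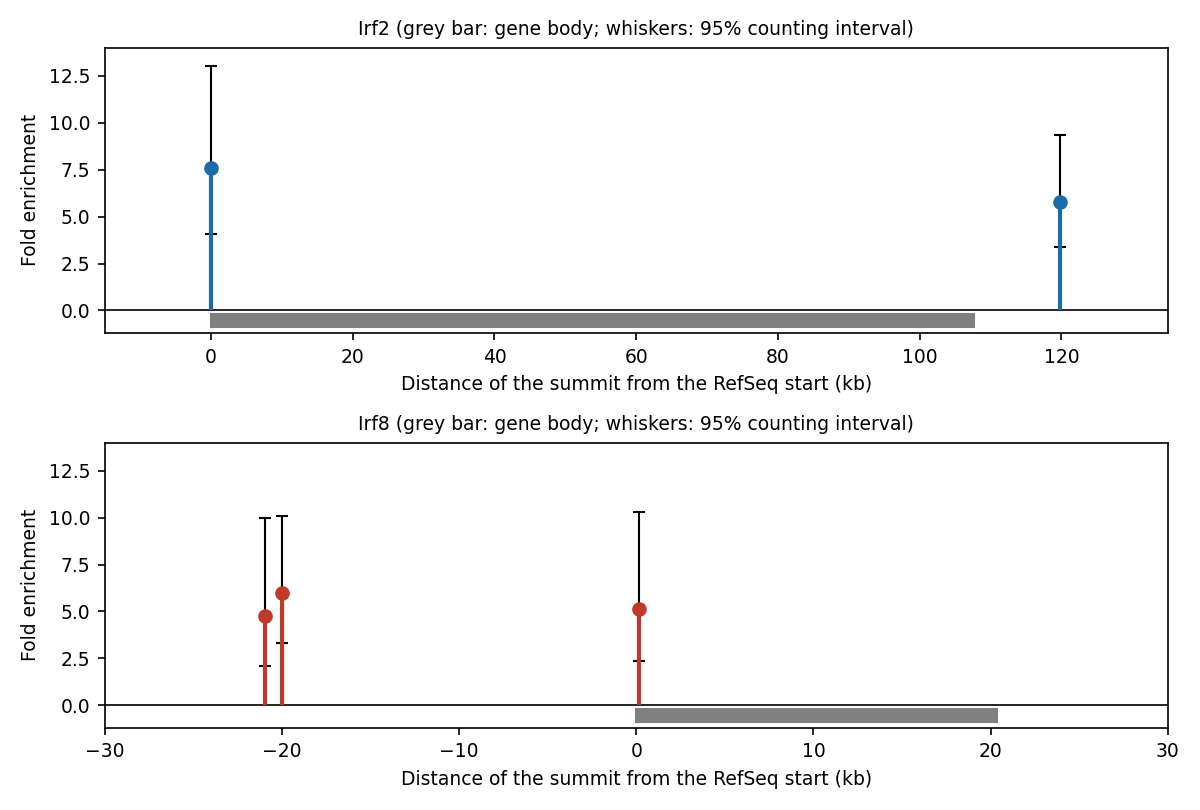
Position of the peaks along Irf2 (top) and Irf8 (bottom), as the distance of each summit from the RefSeq start in kb, with fold enrichment on the y axis and 95% counting intervals as whiskers. Irf2 has a peak at its start and another 11.95 kb past its end, and Irf8 has a peak just inside its start and a pair about 20 kb upstream.

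Ranked by fold, the order was Irf2 start, Irf8 near upstream, Irf2 distal, Irf8 start and Irf8 far upstream. Ranked by tags, the Irf2 distal peak came first with 15, then the near upstream peak of Irf8 with 12 and the Irf2 start with 11. The lowest upper bound of the 5 fold intervals, 9.34, exceeded the highest lower bound, 4.09, so all 5 intervals overlap. Overlap is not a test of a difference, and the intervals hold the background fixed, so the order of the folds was not tested. The change of order between tags and fold follows the background values. At the Irf2 start, the Irf8 near upstream peak and the Irf2 distal peak the background was 1, 2 and 3 times 0.586 tags, the commonest background in the list above its floor of 0.186. Backgrounds of 1 tag or more occurred at 169 of 1404 peaks (12.04%), among them these last 2.

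**Figure D2:**
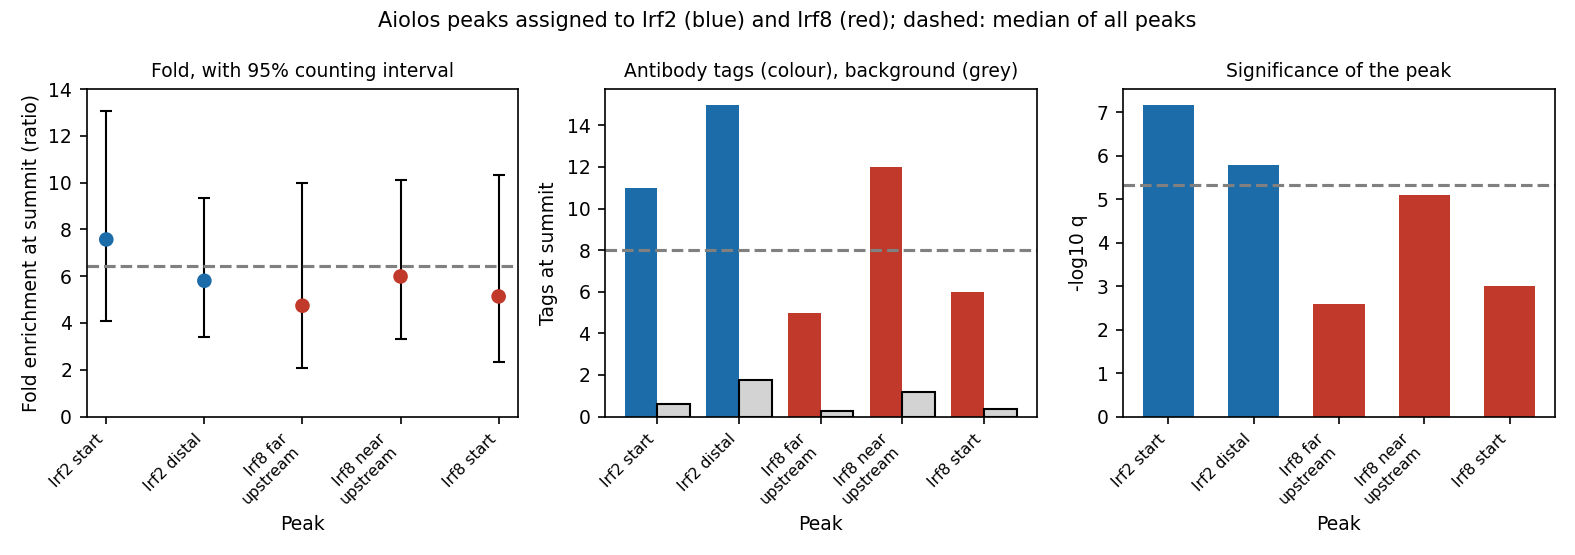
Fold enrichment with its 95% counting interval (left, ratio), tags and background at the summit (middle, tags) and -log10 q (right) for the 5 peaks, Irf2 in blue and Irf8 in red, with dashed lines at the median of all 1404 peaks. The fold intervals of the 5 peaks overlap, and only the 2 Irf2 peaks lie above the median -log10 q of 5.32.

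**Figure D3:**
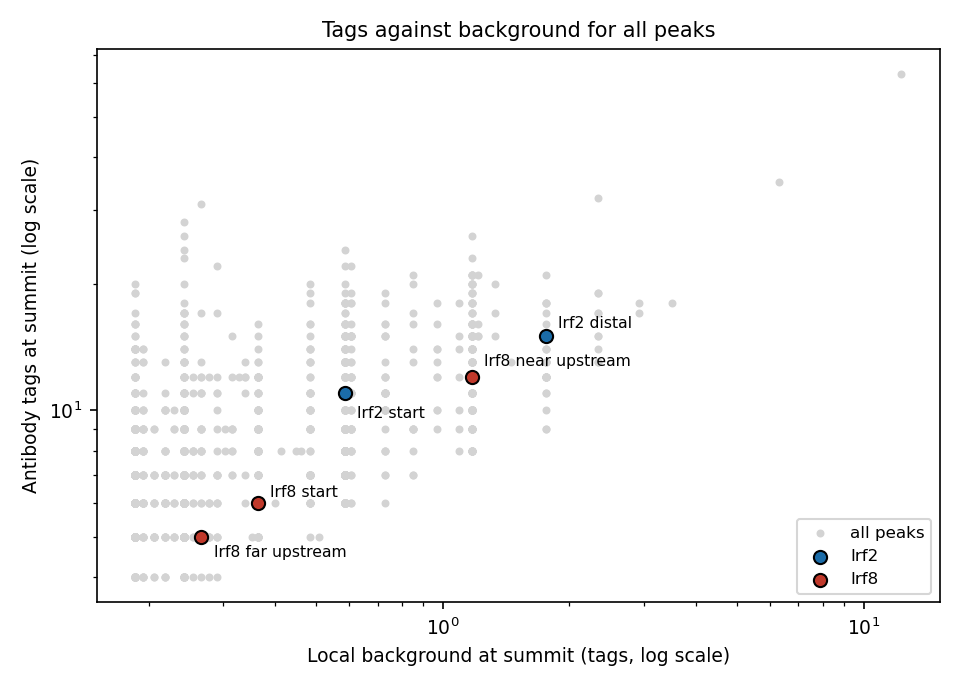
Antibody tags at the summit (y axis, log scale) against the local background (x axis, tags, log scale) for all 1404 peaks in grey, with the Irf2 peaks in blue and the Irf8 peaks in red. The peaks with the most tags in the family, 15 and 12, are also those with the highest background, 1.76 and 1.17.

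Set beside the whole list, the IRF peaks were ordinary or low in fold, but not in their median number of tags. Their median fold was 5.80 (range 4.74 to 7.57) and that of all peaks 6.44 (range 3.63 to 25.3). By class, the median fold in the list was 6.60 for promoter peaks and 5.90 for non-promoter peaks. The IRF peaks had a median of 11 tags (range 5 to 15), against 8 tags (range 4 to 63) for all peaks. That median covers a split. The start and far upstream peaks of Irf8 had 6 and 5 tags, more than 14.5% and 3.21% of all peaks. The others had 11, 12 and 15 tags, over backgrounds of 0.586, 1.17 and 1.76. As to frequency, 2 of 8 genes had a peak (25.0%), where 5.38% of the 21900 protein-coding genes of the RefSeq table had one. The same 2 genes had a promoter peak, its centre within 1000 bp of the annotated start, against 3.79% of protein-coding genes. Outside promoters lay 3 of the 5 peaks, beside 494 of all 1404 peaks, of which 64.8% were promoter peaks. All 3 lay more than 10000 bp from the annotated start, and 260 of all 494 non-promoter peaks (52.6%) lay as far.

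With 3 assigned peaks, Irf8 was 1 of 18 genes with 3 or more, 17 of them protein-coding, which is 0.0776% of protein-coding genes. Its number of peaks was one of the features named when the family was proposed, so this is a description. At Irf8 itself, several peaks did not go with strength. Irf8 was 1 of 3 among the 18 genes, with Prex1 and Dhrsx, whose peaks all fell below the median -log10 q and at or below the median fold. All other genes of that group had at least 1 peak that reached the median -log10 q. These counts are descriptions and were not tested. In the 727 peaks whose -log10 q reached the median, Irf2 kept both peaks and Irf8 had none, so 1 of 8 members (12.5%) was left, against 2.89% of protein-coding genes. Among the 687 peaks above the median fold only the peak at the Irf2 start was left, again 1 of 8 members, against 2.73%.

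The 6 members without an assigned peak differed in how far the nearest peak was. Distances here run from the gene body to the nearest peak edge, and these neighbours were named after their values had been seen. Of the 8 members, 6 (75.0%) had some peak within 100 kb, against 25.3% of protein-coding genes, and 4 of those 6 owed it to peaks credited to another gene.

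Irf1, an activator induced by interferon-gamma, had the strongest of these neighbours. A peak of 671 bp at chr11:53794743-53795413, 16.4 kb past the end of Irf1, had 15 tags over a background of 0.242, a fold of 12.9 (7.56 to 20.7) and a -log10 q of 18.0. It ranked 33 of 1404 by fold, above each of the 5 assigned IRF peaks, though its interval overlaps those of all 5. By tags it only equalled the Irf2 distal peak, which had 15 over a background of 1.76. The authors credit it to a transcript of Gm12216, a non-coding gene on the opposite strand to Irf1, at 462 bp from the start, and class it as a promoter peak. By nearest protein-coding gene end it would belong to Irf1, and the members with a peak would then number 3. It was the only peak within 100 kb of Irf1.

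Irf9, which acts below the type I interferon receptor, lay 12.4 kb from a peak at the promoter of Psme2, a subunit of the interferon-inducible proteasome activator. That peak had 10 tags over a background of 1.09 and a fold of 5.26 (2.77 to 9.27). A weaker one, at Dcaf11 and 43.2 kb away, had a fold of 3.63 (1.86 to 6.56) and a -log10 q of 1.31, the lowest in the list.

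Irf3, activated by the kinase TBK1, had 3 peaks within 100 kb, all at promoters of other genes. They belonged to Rras at 14.7 kb (5.90-fold, 2.70 to 11.9), Prrg2 at 59.6 kb (12.6-fold, 7.25 to 20.5) and Ap2a1 at 67.6 kb (6.31-fold, 3.23 to 11.4). Irf5, a driver of inflammatory cytokine genes in myeloid cells, had 1, at the promoter of Atp6v1f and 58.1 kb away (7.39-fold, 3.66 to 13.8).

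Irf7 and Irf4 had no peak within 100 kb. For Irf7, which amplifies type I interferon production, the nearest was at Taldo1, 126 kb away. For Irf4, which is induced by antigen receptor signals in lymphocytes, it was at Prpf4b, 4.11 Mb away, and 92.4% of protein-coding genes had a nearer one.

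**Figure D4:**
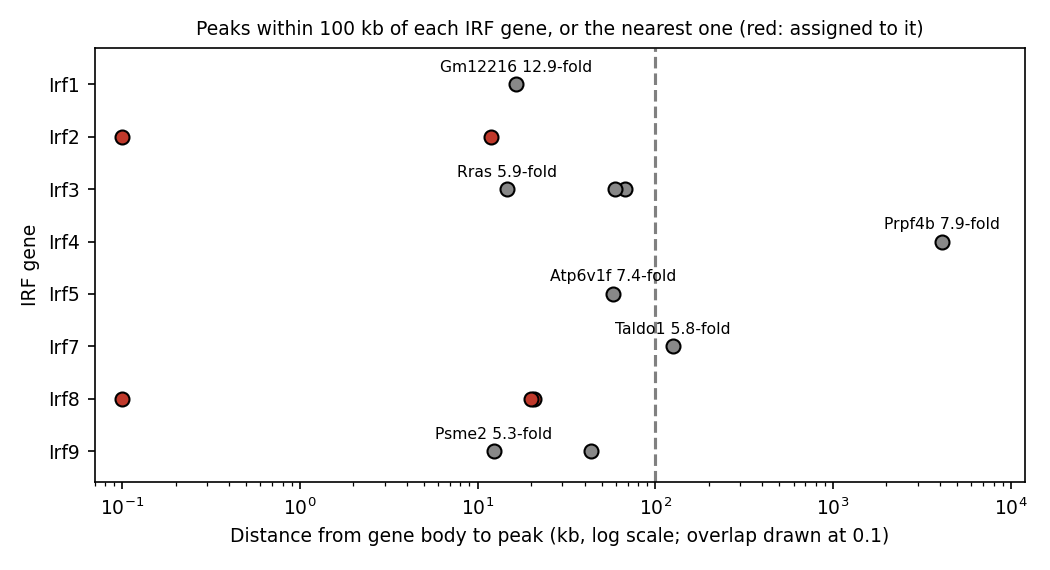
Distance from each IRF gene body to every peak within 100 kb, or to the nearest peak where there is none (x axis, kb, log scale, with overlapping peaks drawn at the left edge), with peaks assigned to the gene in red and others in grey. Irf2 and Irf8 are overlapped by their own peaks, Irf1, Irf3, Irf5 and Irf9 have peaks of other genes between 12.4 and 67.6 kb, and Irf4 and Irf7 have none within 100 kb.

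Genes that act with or around the IRFs were taken from 4 lists with 97 protein-coding genes in the RefSeq table, of which 8 (8.25%) had an assigned peak, beside the 5.38% of all protein-coding genes. A promoter peak was present at 6 of the 97 (6.19%), beside 3.79% of all protein-coding genes. The median fold of the peaks was 6.06, below the 6.44 of all peaks. In each of the stricter sets 2 of the 97 genes were left (2.06%), beside 2.89% of protein-coding genes by -log10 q and 2.73% by fold.

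Among 13 partners and regulators of IRFs, 2 had a peak (15.4%, beside 5.38% of all protein-coding genes). Tcf3, whose E2A proteins join IRF4 on immunoglobulin enhancers, had a promoter peak at chr10:80433725-80433991 with 32 tags. Its fold was 9.87 (6.85 to 13.8), with a -log10 q of 20.5. That fold was higher than at any assigned IRF peak, though its interval overlaps the interval of each. Irf2bpl, named for its likeness to proteins that bind IRF2, had an intergenic peak 59.2 kb downstream of its start with a fold of 6.23 (3.18 to 11.3). Ikzf1, the gene of Ikaros, had no assigned peak. A peak of 5.90-fold (2.70 to 11.9) from 6 tags at chr11:11763306-11763516 nevertheless lay inside the Ikzf1 gene body, and the authors credit it to Fignl1, whose annotated start is 45.4 kb away. It was named after its value had been seen.

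Of 19 sensors and adaptors that act above the IRFs, 1 had a peak (5.26%), near the 5.38% of all protein-coding genes. It was Ticam1, with a promoter peak of 5.90-fold (2.70 to 11.9). Ticam1 encodes TRIF, the adaptor that leads from Toll-like receptors to IRF3. Of 16 interferon and interferon signalling genes, 2 had a peak (12.5%, beside the same 5.38%). Ifng, the interferon of NK cells, had one of 6.37-fold (3.35 to 11.2) 29.5 kb downstream of its start, and Ptpn2, a phosphatase that turns off JAK and STAT proteins, had a promoter peak of 5.63-fold (2.58 to 11.3).

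Among 49 listed interferon-stimulated genes 3 had a peak (6.12%), close to the 5.38% of all protein-coding genes. The share belongs to this list, which is not complete and leaves out Psme2, whose promoter peak is given above. Tap1, a subunit of the peptide transporter for antigen presentation, had the strongest at chr17:34187441-34187680, with 18 tags and a fold of 8.75 (5.37 to 13.6). The same peak lay 111 bp from the start of Psmb9, an immunoproteasome subunit transcribed the other way and on the same list, which the count does not include. Gbp4, a guanylate-binding protein, had a promoter peak of 5.90-fold (2.70 to 11.9). It belongs to a cluster of close paralogs, where the placement of short reads is uncertain. Ifi35 had a promoter peak of 4.22-fold (1.76 to 9.48) from 4 tags, the lowest number at any peak.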

How the data were processed

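CUT&RUN libraries with and without an Aiolos antibody, 1 each, were made from cultured mouse splenic NK cells, and the deposited peak list was the starting material. MACS2, Bowtie2, Picard, SAMtools and the build mm10 are named, without roles, in the submitters' processing notes. The sources used here leave out how duplicates were filtered and which q was required. The library without a primary antibody is labelled input, but whether it served as the control for peak calling was not stated. For each peak the authors deposited a fold ratio (signal value), a -log10 p-value, a -log10 q-value and a score of 10 times -log10 q, per the file headers. These are the authors' own values and only describe and rank peaks within the list.

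The tags at each summit were solved from the fold, read as (tags + 1)/(background + 1), and the -log10 p, read as a Poisson tail. All 1404 peaks were solved with an error of at most 1.75e-05. The method was also run on simulated data made from the same formula, which can check the solving step but not the formula. Fold intervals come from exact Poisson intervals (95%) of the tags with the background fixed. They cover counting error of the antibody tags only and leave out that of the background. They would also be too narrow if duplicates were kept. The number of tags, 4 to 63 with a median of 8, sets the precision. Genes and promoter windows come from RefSeq tables (GRCm38.p6). No tests were made, because each group was 1 library. Alternatives were stricter peak sets, other distances, merged peaks, nearest gene ends and upstream bases alone.

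The members, lists and motifs were chosen with earlier results of these data known. Named were every member, every listed gene with a peak up to 6 per list, and peaks within 100 kb. The neighbours of members without a peak, Ikzf1, Psmb9, Prex1 and Dhrsx were named after their values had been seen. Calculations used Python 3.11.15, SciPy 1.17.1 and pandas 2.3.3.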

Additional observations from a re-analysis of the deposited data

How the results depend on the processing

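Keeping peaks whose -log10 q reached the median left 1 IRF gene in place of 2, 2 IRF peaks in place of 5 and 2 interferon pathway genes in place of 8. Keeping peaks above the median fold left 1 IRF gene, 1 IRF peak and 2 pathway genes. Both filters leave fewer peaks to count by construction. Assignment to the nearest protein-coding gene end gave 3 IRF genes, the added one being Irf1. The count of 2 IRF genes with a promoter peak was 2 with windows of 500 and 3000 bp, with the peak edge and with the authors' promoter class, and peaks within 10000 bp of the start also named 2 IRF genes. Merging peaks within 500 bp left 5 IRF peaks, and promoter peaks alone gave 6 pathway genes. With the upstream 250 bases alone, 7 IRF windows in place of 8 held the Ikaros core. No IRF peak had more than 15 tags, which limits every fold interval. No paired analysis was possible because each group holds a single library.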
